A study of Homo sapiens with 6 samples.

Results

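Collagen chain genes are the genes whose current HGNC symbol has the form COL, number, A, number, and all 44 such symbols were found among the 20263 genes of the table. Each collagen molecule is a trimer of chains wound into a triple helix, and a given type is built either from identical chains or from chains of different genes. Fibrillar collagens form the banded fibres of connective tissue, network collagens form sheets such as the basement membrane under epithelia, and FACIT collagens (fibril-associated collagens with interrupted triple helices) sit on the surface of fibrils. Transmembrane collagens are anchored in the cell membrane, and multiplexins are proteoglycan-like collagens of basement membranes. In glandular tissue such as the prostate, epithelial cells rest on a basement membrane rich in type IV collagen, and stromal fibroblasts are the usual source of fibrillar collagen.

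The cells are given as LNCaP, an established line of human prostate cancer. RNA sequencing of total RNA compared 3 libraries from cells with an empty vector and 3 from cells with a vector meant to overexpress the long non-coding RNA LINC01518. The series description gives MEG3 as the insert instead, and group names here follow the sample titles. Whether the cells were 1 clone or a pool, and whether each library had its own culture, is not stated. All p-values therefore rest on a spread between libraries that may be only technical.

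Library totals lay between 38161544 and 42553688 counts, and 0.292% to 0.336% of them fell on collagen genes. Of 12 luminal prostate and LNCaP markers, KLK3, KLK2, TMPRSS2 and FOLH1 had 0 counts in all 6 libraries, while KRT8, an epithelial keratin, had 53252 to 72353 counts, so the data go against the cell line label in part. KRT8 was called higher by edgeR, DESeq2, limma-voom and limma-trend on TPM, at 1363 ± 62.1 against 1669.8 ± 46.2 CPM (SD, n = 3 each). CPM are counts scaled to the library total with a TMM correction. Its log2 fold change was 0.29 (edgeR adjusted p = 0.0187). Leaving out 1 library ended the edgeR call of KRT8 in 4 of 6 fits (adjusted p up to 0.0787). The summed level of the 12 did not overlap between groups, at 2775 to 2970 TPM with empty vector and 3150 to 3346 TPM with overexpression, and its part in the collagen results was not tested. Of 10 fibroblast markers, LUM, PDGFRA, FAP and POSTN had 0 counts in every library, and the summed level of the 10 was 541 to 563 TPM (a level per transcript length, scaled to the library) with empty vector and 583 to 608 TPM with overexpression. FBLN1, a secreted matrix glycoprotein, made up 518 to 584 TPM of that sum, and PDGFRB alone of the 10 was called, at 29.7 ± 1.75 against 36.8 ± 1.67 CPM. Its TPM overlapped, with a difference of -0.06 on the log2(TPM + 1) scale, and leaving out any 1 library ended the edgeR call. The groups did not overlap in the summed fibroblast level, whose part in the collagen results was likewise not tested. Of 7 endothelial and 6 immune markers 0 were called by edgeR, DESeq2, limma-voom or limma-trend on TPM, with 0 at an unadjusted edgeR p under 0.05, and their summed levels overlapped at 5.34 to 7.57 TPM and 2.04 to 2.78 TPM. With edgeR, 484 of 13543 genes were called higher and 275 lower at an adjusted p under 0.05, against 346 and 382 when scaled by library size alone.

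Of the 44 collagen genes, 24 had enough counts to be tested and 20 did not. COL6A5, COL9A1, COL19A1, COL21A1 and COL22A1 had 0 counts in all 6 libraries, which allows up to 0.0705 to 0.0786 CPM per library for counting error. The other 15 had at most 15 counts in any library: COL1A2, COL2A1, COL5A2, COL5A3, COL6A3, COL6A6, COL8A2, COL10A1, COL11A1, COL13A1, COL14A1, COL20A1, COL23A1, COL24A1 and COL28A1. Small changes in these 20 were not detectable at this depth, and the main test left them out. Of the 24 tested, 0 passed the count filter through the libraries of 1 group alone.

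Per length, the collagen genes spanned a wide range, and a small number of them made up most of the total. COL4A2, the second chain of basement membrane collagen, had the highest mean level over the 6 libraries, at 191 to 228 TPM. COL9A3, a chain of the cartilage FACIT collagen type IX, followed at 153 to 195 TPM, with COL7A1, the anchoring fibril collagen that ties epithelium to its stroma, at 146 to 195 TPM. COL5A1, a fibrillar chain that sets fibril diameter, had 91.6 to 118 TPM, and the multiplexin COL15A1 67.5 to 85.3 TPM. These 5 genes held 71.7% to 73.6% of collagen TPM in each library. COL4A2 was the highest in each of the 6 libraries, although its range over them overlapped those of COL9A3 and COL7A1. COL7A1 lay above COL9A3 in empty vector replicates 1 and 2, and COL9A3 above COL7A1 in the other libraries. COL6A1, COL4A1, COL12A1, COL4A5, COL1A1 and COL18A1 came next, between 19.6 and 68.0 TPM, and the remaining 13 tested genes lay at or below 8.21 TPM.

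**Figure D1:**
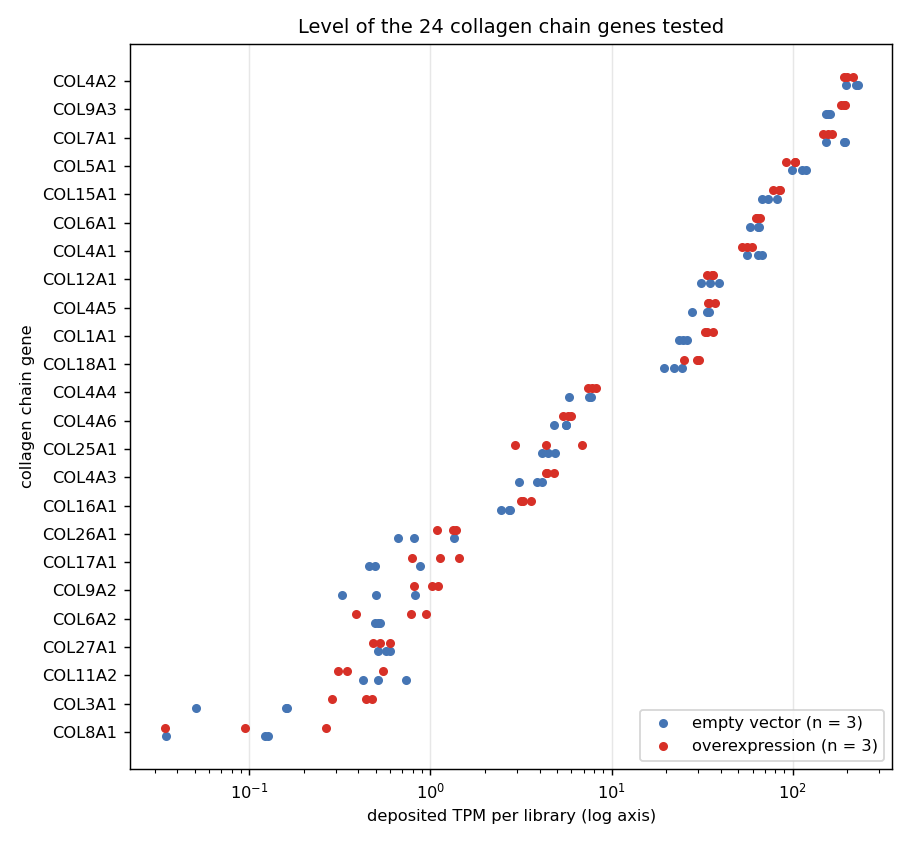
Deposited TPM of the 24 tested collagen genes, 1 point per library on a log axis, with empty vector in blue and overexpression in red. The genes run from COL4A2, at 191 to 228 TPM, down to COL8A1, at 0.0340 to 0.265 TPM.

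Summed over all 44 genes, collagen did not separate the groups. The sum was 1059, 1042 and 909 TPM with empty vector and 971, 1062 and 1009 TPM with overexpression. The groups overlapped, with means of 1003 ± 82.2 and 1014 ± 45.8 TPM (SD, n = 3 each), and the two-sided exact permutation test gave p = 0.8, where 0.1 is the smallest p that 3 against 3 libraries allow. In a bulk sample, fewer cells that express a gene and less RNA per cell cannot be told apart.

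The comparison of overexpression with empty vector asked which chains changed. COL1A1, COL9A3, COL16A1, COL17A1 and COL18A1 rose, with log2 fold changes (overexpression minus empty vector) between 0.33 and 0.91, and 0 collagen genes fell. The 5 are 20.8% of the 24 tested, and 3.57% of all genes tested were called higher. For the lower direction, where 2.03% of all genes were called, 0 collagen genes had an unadjusted edgeR p under 0.05 (11.4% of all genes did), and DESeq2, limma-voom and limma-trend on TPM each called 0, against 3.93%, 2.01% and 0.879% of all genes. In the higher direction, 10 of the 24 had an unadjusted p under 0.05, against 12.3% of all genes. DESeq2 and limma-voom called the same 5 genes higher, against 5.79% and 3.51% of all genes. For 4 of the 24, COL3A1 among them, DESeq2 gave no adjusted p and so could not call them in either direction. On the TPM, limma-trend called COL1A1 and COL9A3 alone, against 0.738% of all genes. The median log2 fold change of the 24 was 0.20, against -0.0035 over all genes, and 18 of the 24 were positive, or 75%, against 49.2%.

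**Figure D2:**
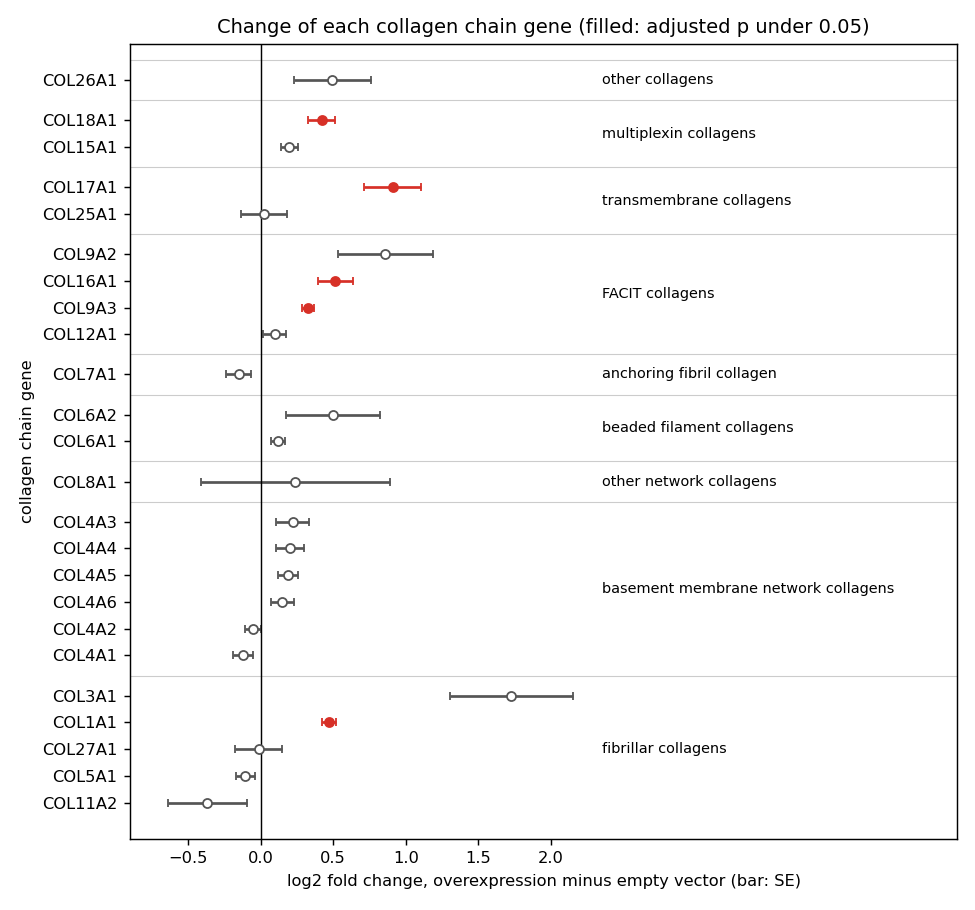
Log2 fold change of each tested collagen gene with its SE, ordered within structural classes, with the genes called by edgeR filled in red. The 5 called genes lie between 0.33 and 0.91 and belong to the fibrillar, FACIT, transmembrane and multiplexin classes.

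Of the 11 fibrillar genes, 5 were tested and 1 was called. COL1A1 encodes the major chain of type I collagen, the main collagen of bone, skin and tumour stroma, and lies on chromosome 17 from 50183289 to 50201632 (GRCh38). It had 80.6, 86.6 and 80.1 CPM with empty vector and 116, 113 and 113 CPM with overexpression. Every overexpression library lay above every empty vector library. The log2 fold change was 0.47 (SE 0.049, edgeR adjusted p = 0.00452), a 1.39-fold rise, and the TPM, 23.5 to 26.1 against 32.9 to 36.1, did not overlap either. With any 1 library left out it was still called, at edgeR adjusted p between 0.0129 and 0.021.

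COL3A1, the type III collagen gene of reticular fibres, had the largest fold change of the 24 but came from very few reads. Its counts were 18, 6 and 18 with empty vector and 53, 32 and 52 with overexpression, or 0.348 ± 0.180 against 1.15 ± 0.298 CPM (SD, n = 3 each). The groups did not overlap, yet the gene missed the threshold (log2 fold change 1.73, SE 0.423, edgeR adjusted p = 0.0562). With no count filter it passed (adjusted p = 0.0471), and without 1 library the log2 fold change lay between 1.34 and 1.99 and was not called. COL5A1 had 488, 476 and 429.7 CPM with empty vector and 401, 443.5 and 450.3 CPM with overexpression, which overlap (log2 fold change -0.11, SE 0.066, edgeR adjusted p = 0.368). COL11A2, a cartilage chain at 39 to 85 counts, and COL27A1, a fibrillar chain of cartilage at 78 to 100 counts, had log2 fold changes of -0.37 and -0.01 and overlapped as well.

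Of the 10 FACIT genes, 4 were tested and COL9A3 and COL16A1 rose. COL9A3 lies on chromosome 20 from 62816244 to 62841159 and had 189, 197 and 194 CPM with empty vector and 237, 246 and 244 CPM with overexpression. The groups were separated by more than either group's own range. The log2 fold change was 0.33 (SE 0.041, edgeR adjusted p = 0.00816). Leaving out any 1 library kept the call (edgeR adjusted p between 0.0208 and 0.0453). As a share of collagen TPM, COL9A3 was 14.8%, 15.4% and 16.8% with empty vector and 19.1%, 18.3% and 18.9% with overexpression. Less than 1% of its exonic bases overlap TCFL5 on the other strand, which had a log2 fold change of 0.03.

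COL16A1, a FACIT collagen of fibrils and basement membrane zones (chromosome 1, 31652247 to 31704319), had 4.69, 5.82 and 5.37 CPM with empty vector and 7.33, 8.18 and 7.17 CPM with overexpression. The groups did not overlap in CPM or in TPM. The log2 fold change was 0.52 (SE 0.118, edgeR adjusted p = 0.0471). Leaving out any 1 library ended the call (edgeR adjusted p between 0.0764 and 0.137), as did upper-quartile scaling (0.0529) and library size only (0.0544). Mean TPM was 2.63 ± 0.159 with empty vector and 3.32 ± 0.229 with overexpression (SD, n = 3 each). On the log2(TPM + 1) scale the difference was 0.25. Adding 1 lowers the difference of low genes, and its part in the gap to 0.52 was not tested. COL9A2, another type IX chain, had 0.708, 1.196 and 0.490 CPM with empty vector and 1.52, 1.63 and 1.22 CPM with overexpression. Its groups were barely apart and it did not pass (log2 fold change 0.86, SE 0.326, edgeR adjusted p = 0.163). COL12A1, a FACIT of dense connective tissue, had 202, 171 and 161 CPM with empty vector and 184, 194 and 193 CPM with overexpression, which overlap (log2 fold change 0.10, SE 0.081).

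Of the 4 transmembrane genes, 2 were tested. COL17A1 encodes the hemidesmosome collagen that holds basal epithelial cells to the basement membrane (chromosome 10, 104031286 to 104085957). It had 57, 52 and 58 counts with empty vector and 94, 124 and 88 with overexpression, or 1.39, 1.22 and 1.497 against 2.24, 3.15 and 2.33 CPM. The CPM did not overlap, whereas the TPM did, with 0.874 in empty vector replicate 3 and 0.787 in overexpression replicate 3. The log2 fold change was 0.91 (SE 0.197, edgeR adjusted p = 0.0403), or 0.40 on the log2(TPM + 1) scale. Mean TPM was 0.608 ± 0.231 with empty vector and 1.12 ± 0.327 with overexpression (SD, n = 3 each). Adding 1 lowers the difference at such levels, and its part was not tested. Each of the 6 fits that left out 1 library ended the call (edgeR adjusted p between 0.0689 and 0.117). COL25A1, a membrane collagen known from neurons, overlapped between the groups and had a log2 fold change of 0.02 (SE 0.158).

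Both multiplexin genes were tested. COL18A1, whose protein holds the endostatin fragment at its end, lies on chromosome 21 from 45405137 to 45513720. It had 57.1, 64.8 and 53.0 CPM with empty vector and 69.7, 83.3 and 81.2 CPM with overexpression. The lowest overexpression library, replicate 1, lay above the highest empty vector library, replicate 2. The log2 fold change was 0.42 (SE 0.094, edgeR adjusted p = 0.0447). Leaving out 1 library ended the call in 5 of 6 fits (up to 0.135), the exception being empty vector replicate 2 (0.0495). Upper-quartile scaling (0.0542) and library size only (0.0577) ended it as well. Of the exonic bases of COL18A1, 16.4% overlap SLC19A1 on the other strand, and reads there cannot be assigned without a stated strand setting. SLC19A1 had 35.01 ± 1.69 and 36.8 ± 0.827 CPM (SD, n = 3 each; log2 fold change 0.07, edgeR adjusted p = 0.534). COL15A1 had 218, 201 and 190.3 CPM with empty vector and 238, 239 and 221 CPM with overexpression, which do not overlap, but it missed the threshold (log2 fold change 0.20, SE 0.061, edgeR adjusted p = 0.1005). Its TPM overlapped.

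**Figure D3:**
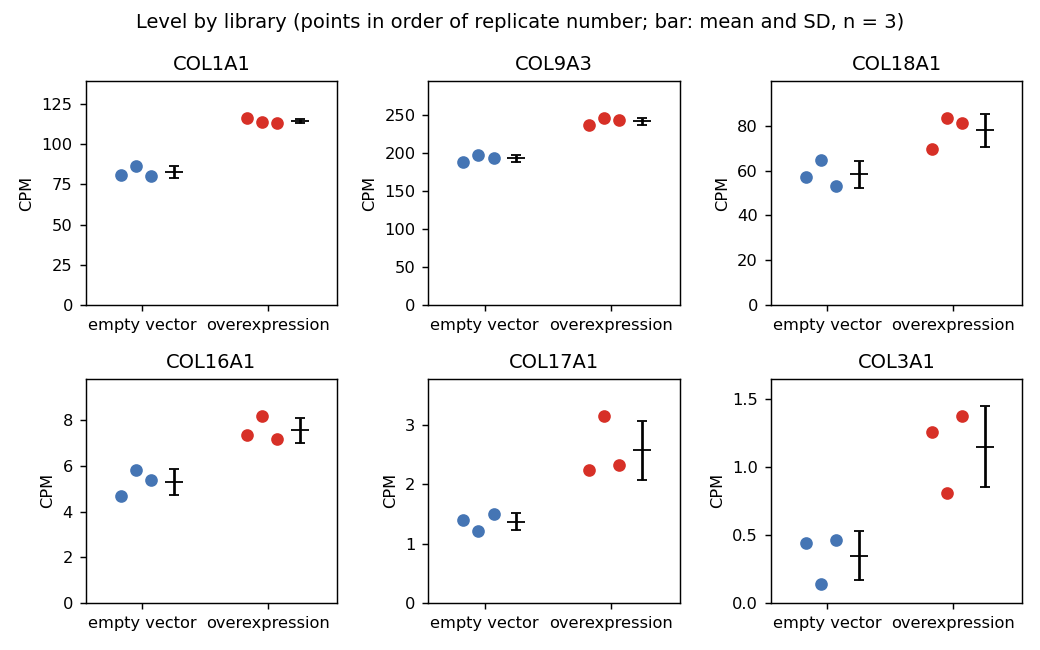
CPM by library of the 5 called collagen genes and of COL3A1, with the mean and SD of 3 libraries beside the points and each axis starting at 0. In all 6 genes the overexpression libraries lie above the empty vector libraries, and COL3A1, at 0.141 to 1.38 CPM, did not pass the test.

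Promoter sequence is shown for the called genes with an entry in the RefSeq promoter table (build GRCh38.p14), as the 250 bases before each start site on the gene's own strand. Capitals mark a GC box (GGGCGG, bound by SP1), a CCAAT box (CCAAT) or a TATA box (TATAAA), on either strand. COL18A1 has separate start sites in that table, and their windows differ in make-up. Gene spans given above come from another annotation, GENCODE, whose starts differ from these. The windows of COL16A1 and of the downstream COL18A1 start lie inside the gene spans. Those of COL17A1 and of the upstream COL18A1 start overlap the spans in part.

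COL16A1 chr1:31704018-31704267 (minus strand): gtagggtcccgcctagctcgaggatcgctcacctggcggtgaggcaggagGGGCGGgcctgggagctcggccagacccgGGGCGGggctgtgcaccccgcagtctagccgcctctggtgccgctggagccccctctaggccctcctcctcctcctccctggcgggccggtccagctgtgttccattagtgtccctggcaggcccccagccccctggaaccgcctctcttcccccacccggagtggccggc
COL17A1 chr10:104085881-104086130 (minus strand): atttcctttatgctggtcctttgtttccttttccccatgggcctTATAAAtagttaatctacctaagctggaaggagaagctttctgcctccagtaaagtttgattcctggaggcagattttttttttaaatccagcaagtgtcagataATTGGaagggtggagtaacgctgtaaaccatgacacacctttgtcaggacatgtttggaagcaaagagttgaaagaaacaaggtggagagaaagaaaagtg
COL18A1 upstream start chr21:45404915-45405164 (plus strand): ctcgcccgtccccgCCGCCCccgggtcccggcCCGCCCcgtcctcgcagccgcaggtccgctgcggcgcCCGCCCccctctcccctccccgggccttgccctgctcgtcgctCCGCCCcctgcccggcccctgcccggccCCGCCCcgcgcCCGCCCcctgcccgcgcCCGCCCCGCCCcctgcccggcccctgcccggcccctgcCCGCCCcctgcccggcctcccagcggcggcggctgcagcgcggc
COL18A1 downstream start chr21:45455272-45455521 (plus strand): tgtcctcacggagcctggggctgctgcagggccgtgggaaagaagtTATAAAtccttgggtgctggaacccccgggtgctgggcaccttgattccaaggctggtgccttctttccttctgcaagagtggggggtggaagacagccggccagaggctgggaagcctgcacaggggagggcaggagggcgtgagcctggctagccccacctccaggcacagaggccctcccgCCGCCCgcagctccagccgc

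The upstream window of COL18A1 held 9 GC boxes and 0 TATA boxes at 88.4% G and C, and the downstream window held 1 of each at 66.4%. COL16A1 held 2 GC boxes at 73.2% G and C, while COL17A1 held 0 GC boxes, 1 CCAAT box and 1 TATA box at 40.4%. The called genes for which sequence is shown thus had unlike windows.

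Type IV collagen is the network of the basement membrane, and all 6 of its genes were tested with 0 called by any of edgeR, DESeq2, limma-voom and limma-trend on TPM (1, COL4A5, had an unadjusted edgeR p under 0.05). COL4A2 had 697, 694 and 632 CPM with empty vector and 620.0, 684 and 647 CPM with overexpression. COL4A1 had 216, 209 and 186 CPM and 177, 197 and 189 CPM. Both overlapped, with log2 fold changes of -0.05 (SE 0.057) and -0.12 (SE 0.068). COL4A5, the next most abundant chain, had 102, 104 and 88.9 CPM with empty vector and 107.5, 117 and 112 CPM with overexpression, which do not overlap, whereas its TPM did. The minor chains COL4A3 (0.22), COL4A4 (0.20), COL4A5 (0.19) and COL4A6 (0.15), of which COL4A3 to COL4A5 form the network of kidney and lung membranes, had positive log2 fold changes with edgeR adjusted p between 0.157 and 0.305. Without empty vector replicate 3, those of COL4A3 and COL4A4 were 0.11 and 0.10. That library was the lowest of its group in 17 of the 24 tested collagen genes. The same share over all tested genes was not counted.

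The type IV genes lie in head-to-head pairs that are read in opposite directions from a shared stretch of DNA. The RefSeq start sites are 126 bases apart for COL4A1 and COL4A2 on chromosome 13, 418 for COL4A4 and COL4A3 on chromosome 2, and 379 for the nearer start of COL4A6 and COL4A5 on chromosome X. The stretch between the COL4A1 and COL4A2 starts is shown because these genes share it in full, and it holds 1 CCAAT box and 1 GC box.

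COL4A1-COL4A2 chr13:110307158-110307283 (plus strand, read towards COL4A2): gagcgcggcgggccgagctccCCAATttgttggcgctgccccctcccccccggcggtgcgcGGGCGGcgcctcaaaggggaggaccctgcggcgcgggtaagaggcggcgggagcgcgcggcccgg

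Despite that shared stretch the partners differed in level. COL4A2 stood 3.45-fold above COL4A1 in TPM with empty vector and 3.61-fold with overexpression. Its log2 ratio to COL4A1 was 1.75, 1.79 and 1.82 with empty vector and 1.87, 1.85 and 1.83 with overexpression. The groups did not overlap, and the exact permutation test gave p = 0.1, the smallest possible, or 0.3 adjusted over the 3 chain ratios tested. COL4A4 stood 1.89-fold above COL4A3 and COL4A5 5.96-fold above COL4A6 with empty vector, against 1.72-fold and 6.14-fold with overexpression. These last ratios were chosen after the values were seen and were not tested.

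In types I, V, VI and IX, 1 chain was abundant and its usual partners were near or at 0. Type I collagen is normally built from COL1A1 and COL1A2 chains, and COL1A2 had 0 counts in 5 libraries and 2 counts in overexpression replicate 3, beside 3104 to 4866 counts of COL1A1. For type V, COL5A1 had 16648 to 20288 counts, while COL5A2 had 2 to 15 and COL5A3 4 to 8. For type VI, whose beaded filaments need several different chains, COL6A1 had 58.1 to 65.7 TPM, COL6A2 0.390 to 0.943 TPM and COL6A3 at most 2 counts. For type IX, COL9A3 had 153 to 195 TPM, COL9A2 0.324 to 1.10 TPM and COL9A1 0 counts. The gaps were there in both groups.

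**Figure D4:**
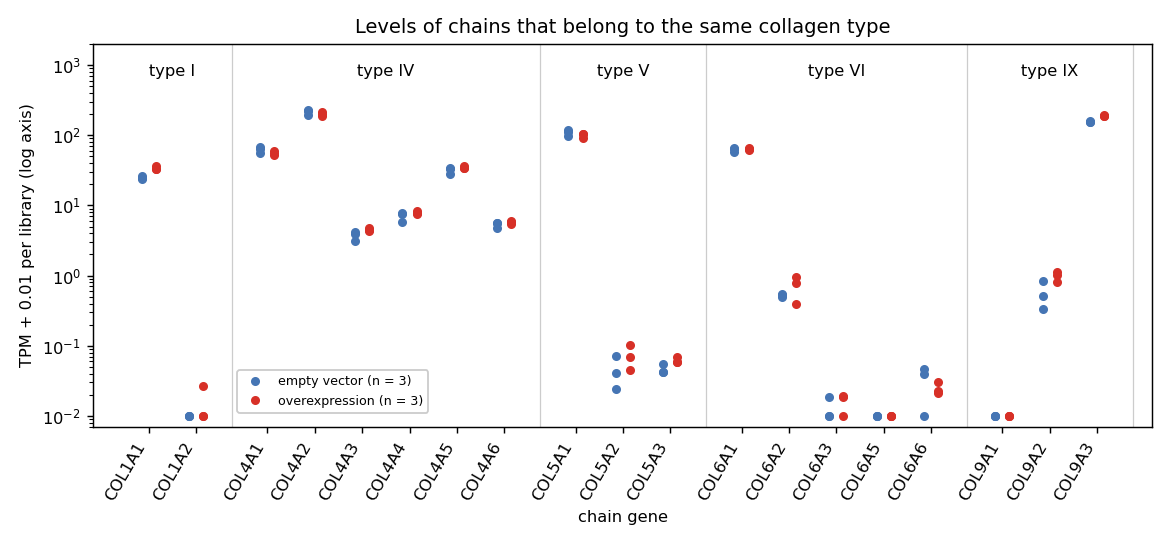
Deposited TPM + 0.01 of the chain genes of types I, IV, V, VI and IX, 1 point per library on a log axis. COL1A1, COL5A1, COL6A1 and COL9A3 stand far above the other chains of their types, whereas all 6 type IV chains lie above 3 TPM in every library.

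COL6A1 had 126, 129 and 119 CPM with empty vector and 133, 137 and 137 CPM with overexpression. The groups did not overlap in CPM but did in TPM, and the difference was not called (log2 fold change 0.12, SE 0.048, edgeR adjusted p = 0.178). COL6A2, at 30 to 65 counts, overlapped between groups. The log2 ratio of COL6A2 to COL6A1 in TPM was -6.91 ± 0.098 with empty vector and -6.58 ± 0.665 with overexpression (SD, n = 3 each; exact permutation p = 0.4). That of COL9A3 to COL9A2 was 8.23 ± 0.630 and 7.60 ± 0.224 (exact permutation p = 0.2), and both adjusted values were at least 0.3. The planned ratios for types I, V and VIII and for COL6A3 were not tested, since at least 1 chain of each had under 10 counts in some library.

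COL7A1, the most abundant collagen gene by CPM, had 834, 859.7 and 692 CPM with empty vector and 675, 756 and 718 CPM with overexpression. The groups overlapped through empty vector replicate 3 (log2 fold change -0.15, SE 0.087, edgeR adjusted p = 0.341). Leaving out 1 library moved the log2 fold change between -0.24 (without empty vector replicate 3) and -0.09 (without empty vector replicate 2). COL8A1, a network collagen of vessel walls at 4 to 23 counts, and COL26A1, a little studied collagen at 40 to 92 counts, overlapped too, at 0.24 (SE 0.652) and 0.49 (SE 0.266). Across the 24, the CPM of the groups did not overlap for 12 genes, all higher with overexpression, against 15.9% of all genes higher and 15.5% lower. In TPM this held for 6 of the 24, COL1A1, COL3A1, COL4A3, COL9A3, COL16A1 and COL18A1, against 10.1% of all genes higher and 18.7% lower.

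Over the 19 tested genes with an entry in the promoter table (COL1A1, COL3A1, COL6A1, COL8A1 and COL9A3 had none), 17 of 25 windows held a GC box, against 42.6% of all 250-base windows. A CCAAT box was in 6 of 25 (32.0% of all), a TATA box in 4 (10.7%) and the SMAD box CAGAC in 10 (38%). The AP-1 site TGANTCA (6.57% of all), the unfolded protein response core TGACGTGG (0.613%) and the endoplasmic reticulum stress element (0.0741%) were in 0 of the 25. Both strands were searched, and the stress element contains a CCAAT box. Windows of the COL5A1 starts and of the head-to-head type IV pairs overlap, so some matches were counted more than once. A match is only a match of letters.

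Collagen chains need a long line of enzymes and carriers after translation, and 7 lists of this machinery held 91 tested genes, of which 9 rose (9.89%, against 3.57% of all genes) and 1 fell, where 2.03% of all genes were called lower. Their median log2 fold change was -0.01. On the TPM, limma-trend called 0 of them in either direction, against 0.738% of all genes higher and 0.879% lower. In the list of modification and folding, SERPINH1, the collagen-specific chaperone HSP47, fell from 85.9 ± 4.05 to 44.9 ± 1.23 CPM (SD, n = 3 each; log2 fold change -0.94, edgeR adjusted p = 5.27e-04), against a difference of -0.59 on the log2(TPM + 1) scale that was not called (limma-trend adjusted p = 0.12). PLOD1, a lysyl hydroxylase of collagen, rose from 225 ± 2.74 to 254 ± 4.72 CPM (edgeR adjusted p = 0.0441), and edgeR called 0 of the other 16 of the 18 tested. DESeq2 also called CRTAP, a partner of collagen prolyl 3-hydroxylase, higher (log2 fold change 0.13, edgeR adjusted p = 0.0896).

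The secretion list, which holds the carriers that load procollagen into large transport vesicles, had 0 of 13 called by edgeR, DESeq2, limma-voom or limma-trend on TPM, and 3 at an unadjusted edgeR p under 0.05, a level that 12.3% of all genes reached in the higher direction and 11.4% in the lower. MIA3 (TANGO1), which packs procollagen at exit sites, was at -0.17 and CREB3L2, a transcription factor of secretory genes, at -0.24 (edgeR adjusted p = 0.138 and 0.183). Of 12 processing and crosslinking genes, TLL1, a procollagen proteinase of the BMP1 family, rose from 24.4 ± 3.17 to 33.0 ± 2.19 CPM (edgeR adjusted p = 0.0493), and DESeq2 also called the basement membrane peroxidase PXDN higher (log2 fold change 0.22, edgeR adjusted p = 0.0548). Of 7 receptors, DDR1, the collagen receptor kinase of epithelia, rose from 42.2 ± 6.04 to 63.9 ± 8.16 CPM (edgeR adjusted p = 0.047). Among the 7 it alone had a positive log2 fold change, and the median of the 7 was -0.18. ITGA2, a collagen-binding integrin subunit, had 71.5, 65.9 and 64.7 CPM with empty vector and 21.1, 43.1 and 41.4 CPM with overexpression. The groups did not overlap, and DESeq2 called it lower while edgeR did not (adjusted p = 0.136, log2 fold change -0.94, SE 0.285). Of 12 degradation genes, TIMP3, a matrix-bound inhibitor of metalloproteinases, rose from 150.7 ± 4.6045 to 177 ± 5.18 CPM (edgeR adjusted p = 0.0319).

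Of 11 fibril-associated proteins, the basement membrane linker NID2 rose from 67.5 ± 0.991 to 82.1 ± 0.3602 CPM (edgeR adjusted p = 0.0154), the matrilin gene MATN2 from 7.28 ± 0.628 to 11.6 ± 2.20 CPM (0.0412) and COMP, which binds collagens I, II and IX, from 11.1 ± 1.10 to 14.8 ± 0.795 CPM (0.0488). Of 18 genes of TGF-beta signalling, a main inducer of collagen genes, LTBP1, which stores the latent ligand in the matrix, rose from 117 ± 0.893 to 150.5 ± 4.04 CPM (edgeR adjusted p = 0.00656). TGFBR3, the co-receptor betaglycan, rose from 64.4 ± 1.83 to 85.4 ± 3.86 CPM (0.00956). Of the other 16, edgeR called 0, and DESeq2 called the type I receptor TGFBR1 (log2 fold change 0.34, edgeR adjusted p = 0.0896) and the inhibitory SMAD7 (0.40, 0.0569) higher. When 1 library was left out, SERPINH1, LTBP1 and TGFBR3 were called in all 6 fits, whereas PLOD1, TIMP3 and COMP lost their call in all 6, TLL1 and MATN2 in 5, and DDR1 and NID2 in 4.

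**Figure D5:**
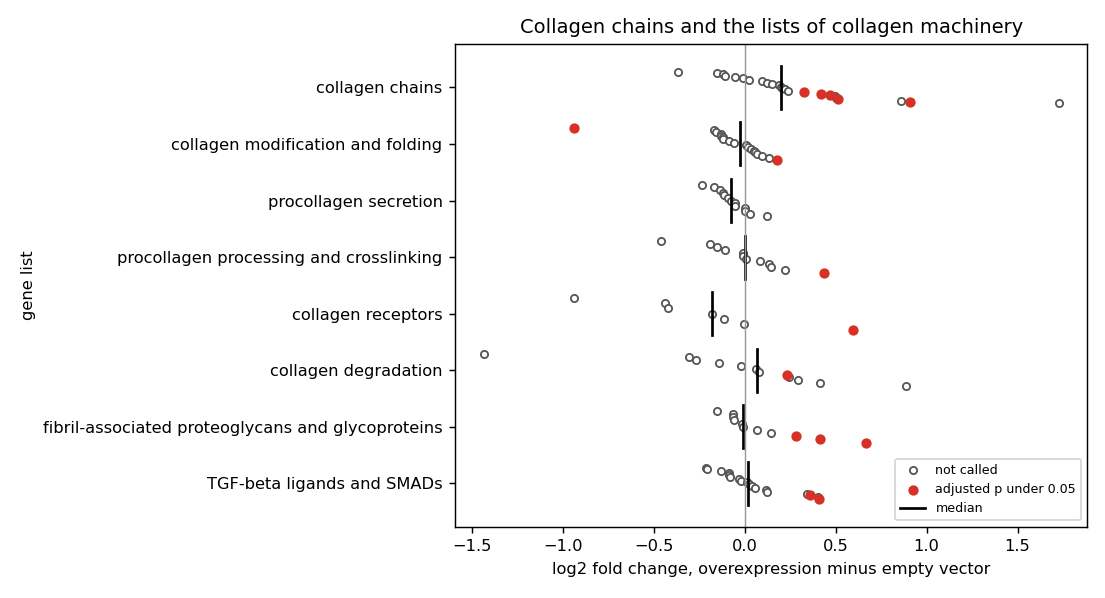
Log2 fold changes of the tested collagen chains and of the tested genes of 7 machinery lists, 1 point per gene, with called genes in red and a bar at each median. The median of the chains lies at 0.20 and those of the lists between -0.18 and 0.07.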

How the data were processed

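Per the submitters' processing notes, the authors trimmed reads with Trimmomatic 0.36, used HISAT2 and GRCh38, and counted genes with featureCounts of Subread 1.5.1. The deposited counts were whole numbers without normalization. The deposited TPM, whose tool is not given in the sources used here, were used for levels per length and in alternative fits. Annotation and strand setting are not given either. All 12 columns matched a sample by name.

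Genes were kept by filterByExpr (minimum count 10, minimum total 15), scaled by TMM and tested with the robust quasi-likelihood F test of edgeR 4.0.16 in R 4.3.3 over all 6 libraries, with Benjamini-Hochberg adjustment over all 13543 genes and calls under 0.05. CPM are TMM-scaled, except for the limits of 0 counts. SE is the log2 fold change divided by the square root of F. Alternatives used limma 3.58.1, DESeq2 1.42.0, other scalings and filters, and fits without 1 library. Members, lists and motifs were chosen with earlier results of these data known. Every collagen gene was accounted for. From the machinery lists all genes called by edgeR were named, or the 2 with the smallest p where 0 were called. Those called by DESeq2 alone were added after their values were seen. 1 item of the marker lists is not reported here.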

Additional observations from a re-analysis of the deposited data

How the results depend on the processing

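Against 5 collagen genes called higher, upper-quartile scaling and library size only called 3 each, limma-trend on TPM + 1 and on TPM + 0.1 called 2 each, and the fits without 1 library called 2 to 3. COL1A1 and COL9A3 were among the calls of all of these, and 0 collagen genes were called lower in any. Over all genes, 759 were called, against 1316 with DESeq2, 219 and 225 on TPM + 1 and TPM + 0.1, and 195 to 482 without 1 library. Machinery genes called higher numbered 9, against 5 with upper-quartile scaling, 4 with library size only, 0 on TPM with either pseudocount and 2 to 4 without 1 library. Those called lower numbered 1, against 2 with DESeq2, 0 on TPM with either pseudocount and 1 to 2 without 1 library. With the replicate number as a block, edgeR called 232 genes, 2 collagen genes higher (COL1A1 and COL9A3) and 4 machinery genes higher. Same-numbered libraries shared little (correlations of deviations 0.0367 to 0.0547, each library highest with its own number), and the labels do not say that the numbers mark a pair. The log2 difference of summed collagen TPM was 0.02 and lay between -0.0523 (without empty vector replicate 3) and 0.0579 (without empty vector replicate 1). Genes without a call changed sign: COL8A1 (-0.47 to 0.65) and COL27A1 (-0.0958 to 0.0686) without 1 library, and COL25A1 without 1 library (-0.16 to 0.14), with library size only (-0.0074) and on TPM + 0.1 (-0.0105). The fibroblast marker PDGFRB, called at 0.31, was at -0.0594 on TPM + 1 and -0.0629 on TPM + 0.1. The cause was not tested. Depth limits COL3A1 and COL8A1, at 4 to 53 counts per library.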
